A study of Homo sapiens with 2 samples.

Results

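The MAGEA genes are a family of cancer-testis genes on the X chromosome, and 8 of them were followed in BHT101 cells, a line from a human anaplastic thyroid carcinoma. They were MAGEA1, MAGEA2, MAGEA2B, MAGEA3, MAGEA4, MAGEA6, MAGEA10 and MAGEA12, taken by gene name from the 58735 genes of the deposited tables. The groups were BHT101 cells overexpressing SETDB2, an enzyme of the histone H3 lysine 9 methyltransferase family, and control cells of the overexpression experiment, both grown in the same medium. RNA was sequenced from 1 library per group, so no difference below has a replicate check and no p-value can be given. The labels name no vector, clone or time after its introduction. The family was chosen by gene name with the read counts of these same libraries in view, so its counts and ratios are a description.

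In healthy adults MAGEA genes are transcribed mainly in male germ cells. In other tissues their CpG-rich promoters are methylated and silent, and many tumours lose that silencing. The proteins share a MAGE homology domain that binds RING-type ubiquitin ligases, MAGEA3 with TRIM28 being the best known pair, and peptides cut from them are shown to T cells on HLA class I molecules. Histone H3 lysine 9 methylation is another mark of silent chromatin.

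The family held a well-expressed pair and a set of faint genes. MAGEA3 and MAGEA6 took 98.0% of the counts of the 8 genes in the SETDB2 library and 98.9% in the control library, and neither differed between the libraries beyond counting error. MAGEA2, whose sequence is almost that of MAGEA2B, was 3.80-fold higher in the SETDB2 library. Summed, these copies were 2.20-fold higher, while MAGEA2B alone had fewer counts there than in the control library. MAGEA1, CSAG2 and CSAG3 had fewer counts in the SETDB2 library by less than 2-fold, and CSAG1 by more. MAGEA4, MAGEA10 and MAGEA12 had between 0 and 8 counts per library.

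The copies have to be seen before the counts, because reads that fit several copies cannot be placed. MAGEA3 and MAGEA6 differ at 18 of the 942 coding bases before the stop codon, in 1 coding exon each, and MAGEA2 and MAGEA2B at 0 of 942. The 75-base stretch with the most differences between MAGEA3 (GRCh38 chrX:152701408-152701482, plus strand) and MAGEA6 (chrX:152767001-152767075, minus strand) covers coding bases 576 to 650, counted from the A of the start codon. It is shown from GENCODE release 29, with the 4 differing bases in capitals.
MAGEA3: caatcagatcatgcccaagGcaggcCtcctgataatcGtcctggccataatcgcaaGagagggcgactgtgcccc
MAGEA6: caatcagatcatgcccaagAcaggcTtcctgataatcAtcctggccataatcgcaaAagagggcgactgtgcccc
In this stretch the changes from MAGEA3 to MAGEA6 are G595A, C601T, G613A and G632A. Elsewhere the coding sequences of this pair are the same over runs of up to 308 bases. MAGEA12 is 93.2% identical to MAGEA2 over the coding sequence and 92.4% identical to MAGEA3. MAGEA1 is 85.4% identical to MAGEA4, and MAGEA10 is the most distant, at 61.3% to 63.7% identity to the other 7.

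Each gene's annotated transcripts were cut into all 75-base pieces and searched in the transcripts of every other gene. For MAGEA1 100% of the pieces were found in no other gene, and the share was 96.0% for MAGEA4, 95.1% for MAGEA12 and 87.1% for MAGEA10. It was 57.9% for MAGEA3 and 60.2% for MAGEA6. It was 6.79% for MAGEA2 and 14.8% for MAGEA2B. Of the 179 pieces found in MAGEA2 alone, 109 crossed an exon junction 63 lay within an exon and were not found in the MAGEA2B transcripts with up to 3 differences, and 7 matched those transcripts with up to 3 differences. None of the 179 lay wholly in coding sequence. The rule by which reads fitting several places were counted is not given in the sources used here.

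RefSeq promoter sequences (build GRCh38.p14, 250 bases before to 50 after a start site) were found for 6 of the 8 genes. They are shown because the copies share an identical promoter window. The counts assigned to MAGEA2 and MAGEA2B were 299 and 46 in the SETDB2 library, and 78 each in the control. Capitals mark CpG dinucleotides, the bases that DNA methylation acts on. The MAGEA3 window is chrX:152698544-152698843 on the plus strand, and MAGEA6 has the same 300 bases at chrX:152769640-152769939 on the minus strand. The MAGEA2B window is chrX:152714378-152714677 on the plus strand, and MAGEA2 has the same bases at chrX:152753793-152754092 on the minus strand. The MAGEA12 window is chrX:152733612-152733911 on the plus strand.
MAGEA3 and MAGEA6: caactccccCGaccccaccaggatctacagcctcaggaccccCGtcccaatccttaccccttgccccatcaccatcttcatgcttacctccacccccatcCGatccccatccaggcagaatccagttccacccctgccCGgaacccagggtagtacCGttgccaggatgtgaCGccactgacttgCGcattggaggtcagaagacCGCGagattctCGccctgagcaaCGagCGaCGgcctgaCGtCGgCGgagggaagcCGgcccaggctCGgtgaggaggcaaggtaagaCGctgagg
MAGEA2B and MAGEA2: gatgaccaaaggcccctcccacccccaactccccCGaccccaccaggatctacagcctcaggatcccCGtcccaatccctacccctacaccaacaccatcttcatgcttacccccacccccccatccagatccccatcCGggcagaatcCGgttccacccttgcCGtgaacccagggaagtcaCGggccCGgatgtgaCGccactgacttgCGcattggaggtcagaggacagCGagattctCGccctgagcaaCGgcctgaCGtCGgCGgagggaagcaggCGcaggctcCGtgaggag
MAGEA12: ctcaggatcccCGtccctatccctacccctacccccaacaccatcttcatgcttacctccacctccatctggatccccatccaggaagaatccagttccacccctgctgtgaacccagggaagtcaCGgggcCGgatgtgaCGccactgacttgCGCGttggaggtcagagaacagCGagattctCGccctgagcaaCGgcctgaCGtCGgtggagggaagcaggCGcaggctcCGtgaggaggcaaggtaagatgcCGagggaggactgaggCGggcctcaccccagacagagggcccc
The windows shown hold 19 CpG for MAGEA3 and MAGEA6, 17 for MAGEA2 and MAGEA2B, and 15 for MAGEA12, and the median over all 35116 RefSeq promoter windows is 14. Windows at the other start sites of MAGEA2 and MAGEA12 hold 13 and 9, and those at 5 MAGEA4 start sites 10 to 15. MAGEA promoters are known from MAGEA1 to be driven by ETS factors, which bind a GGAA or GGAT core. The letters CCGGAA, searched on both strands, occur in the MAGEA3 and MAGEA6 window and in 17.2% of all windows. CCGGAT occurs at least 1 time in 7.12% of all windows. It occurs 3 times in each MAGEA2 and MAGEA2B window, 1 time in each MAGEA12 window and 1 or 2 times in each MAGEA4 window. A stretch picked after looking at these promoters, GGATGTGA, is present in all 12 windows of the 6 genes and in 1.16% of all windows, and it overlaps CCGGAT where that precedes it. The 12 windows are not separate, since those of copies can be identical, and the windows of MAGEA2 overlap each other, as do those of MAGEA12. The stretch is shown in capitals with 16 bases on either side.
MAGEA3 and MAGEA6: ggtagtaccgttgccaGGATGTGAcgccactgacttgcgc
MAGEA2 and MAGEA2B: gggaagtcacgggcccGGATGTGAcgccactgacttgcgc
MAGEA12: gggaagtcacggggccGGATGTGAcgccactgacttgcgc
MAGEA4: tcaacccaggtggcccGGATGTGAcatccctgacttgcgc
The first base of the stretch lies at -86 from the RefSeq start of MAGEA3 and MAGEA6, at -60 from that of MAGEA2 and MAGEA2B, and at -117 from that of the MAGEA12 window above. The MAGEA4 stretch lies at -20 in the window chrX:151912224-151912523 on the plus strand. These matches describe the letters only, and no binding or methylation was measured.

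The libraries were of similar depth, 34053348 counts for SETDB2 and 33572025 for the control, with counts in 26027 genes of the SETDB2 library and 26299 genes of the control library. SETDB2 itself had 1370 counts in the SETDB2 library and 507 in the control library, a log2 ratio of 1.43, and counts per gene do not separate vector transcripts from the cell's own. Ratios are SETDB2 over control on counts scaled to library size, and their 95% intervals cover counting error only. Differences between cultures or preparations are not in them. A gene was kept if its counts summed to 50 or more and 1 library reached 1 CPM, which left 14518 genes with a median log2 ratio of 0.00. The labelled tissue was checked by its markers. Of 7 thyrocyte markers, NKX2-1 had 0 counts in both libraries and TG had 2 counts in the SETDB2 library and 6 in the control. PAX8, the 1 kept, had 30 counts in the SETDB2 library and 42 in the control. The keratin genes KRT8, KRT18 and KRT19 were abundant, with 13213 to 33986 counts in the SETDB2 library and 12729 to 32748 in the control. The remaining epithelial markers were far lower. EPCAM had 549 counts in the SETDB2 library and 493 in the control. CDH1 was faint, with 98 counts (0.469 FPKM) in the SETDB2 library and 121 (0.579 FPKM) in the control. The summed level of the 7 thyrocyte markers was 0.235 FPKM in the SETDB2 library and 0.369 FPKM in the control, and that of 5 epithelial markers was 452 FPKM in the SETDB2 library and 432 FPKM in the control. The 7 fibroblast and endothelial markers summed to 25.6 FPKM in the SETDB2 library and 18.1 FPKM in the control. Among the 4 kept, COL1A1 (1.07), COL1A2 (0.60) and LUM (0.43) had log2 ratios above 0 and PECAM1 (-0.58) below. DCN had 8 counts in the SETDB2 library and 14 in the control, VWF had 6 in the SETDB2 library and 8 in the control, and CDH5 had 0 in both. The part of these markers in the values below was not tested. Of 6 germ cell markers, DAZL, PRM1, PRM2 and TNP1 had 0 counts in both libraries. SYCP3 had 6 counts in each library, and DDX4 had 0 in the SETDB2 library and 4 in the control.

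**Figure D1:**
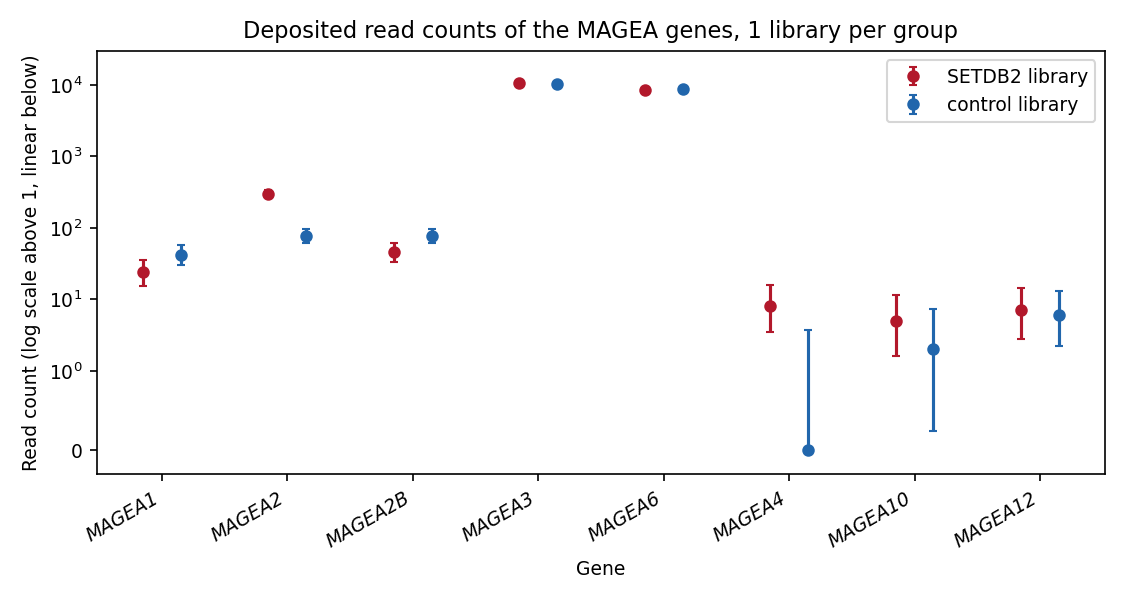
Deposited read counts of the 8 genes on the y axis (log scale above 1, linear below), with the SETDB2 library in red and the control library in blue, 1 library each, and exact 95% Poisson intervals as bars. MAGEA3 and MAGEA6 lie between 8524 and 10447 counts, and MAGEA2 lies at 299 counts in the SETDB2 library, against 78 in the control library.

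MAGEA3 (ENSG00000221867, chrX:152698752-152702347, plus strand), the partner of TRIM28 and a vaccine target, had 10447 counts in the SETDB2 library and 10392 in the control library. Scaled by gene length, the level was 172.9 FPKM in the SETDB2 library, rank 155 among all genes, and 171.8 FPKM in the control library, rank 149. Its log2 ratio was 0.00 with an interval of -0.04 to 0.04. MAGEA6 (ENSG00000197172, chrX:152766136-152769747, minus strand), whose protein is closest to that of MAGEA3, had 8524 counts in the SETDB2 library and 8660 in the control library. The level was 135.4 FPKM in the SETDB2 library and 137.4 FPKM in the control library, and its log2 ratio was -0.03 (-0.07 to 0.01). Since pieces of MAGEA3 are shared with MAGEA6 at 42.0%, the pair was also summed, to 18971 counts in the SETDB2 library and 19052 in the control library. The log2 ratio of the sum was -0.01 (-0.04 to 0.02), or a fold change between 0.971 and 1.01 by counting error. MAGEA3 took 55.1% of the counts of the pair in the SETDB2 library (exact interval 54.4 to 55.8) and 54.5% in the control library (53.8 to 55.3). The intervals overlapped.

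MAGEA2 (ENSG00000268606, chrX:152749863-152753884, minus strand), an antigen gene of the central cluster, had 299 counts in the SETDB2 library and 78 in the control library. The level was 3.89 FPKM in the SETDB2 library and 1.01 FPKM in the control library. Its log2 ratio was 1.93 (1.57 to 2.31), and 9 of the 14518 kept genes had a higher ratio. MAGEA2B (ENSG00000183305, chrX:152714586-152718607, plus strand), which encodes the same protein, had 46 counts in the SETDB2 library and 78 in the control library, a log2 ratio of -0.76 (-1.33 to -0.22). The copies thus lay on opposite sides of 0. The values of each copy are uncertain, since 93.2% of the pieces of MAGEA2 are also found in MAGEA2B.

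Summed, MAGEA2 and MAGEA2B had 345 counts in the SETDB2 library and 156 in the control library. The log2 ratio of the sum was 1.14 (0.86 to 1.42), or 2.20-fold. The sum does not depend on how reads were divided between MAGEA2 and MAGEA2B. It does depend on whether shared reads were counted, and on where reads shared with other members were placed. MAGEA2 holds 2.99% of the pieces of MAGEA3 and 2.83% of those of MAGEA6. MAGEA3 and MAGEA6 together had 18971 counts in the SETDB2 library and 19052 in the control. The part of their reads in the sum was not tested. MAGEA2 took 86.7% of the counts of the pair in the SETDB2 library (exact interval 82.6 to 90.1) and 50% in the control library (41.9 to 58.1). The intervals did not overlap, so the division of the deposited counts differed between the libraries beyond counting error. These intervals take every read as rightly placed. Whether the transcripts of the copies divided in this way cannot be told, since 93.2% of the pieces of MAGEA2 are also found in MAGEA2B. At MAGEA3 and MAGEA6, and at CSAG2 and CSAG3, the intervals of the division overlapped between the libraries.

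**Figure D2:**
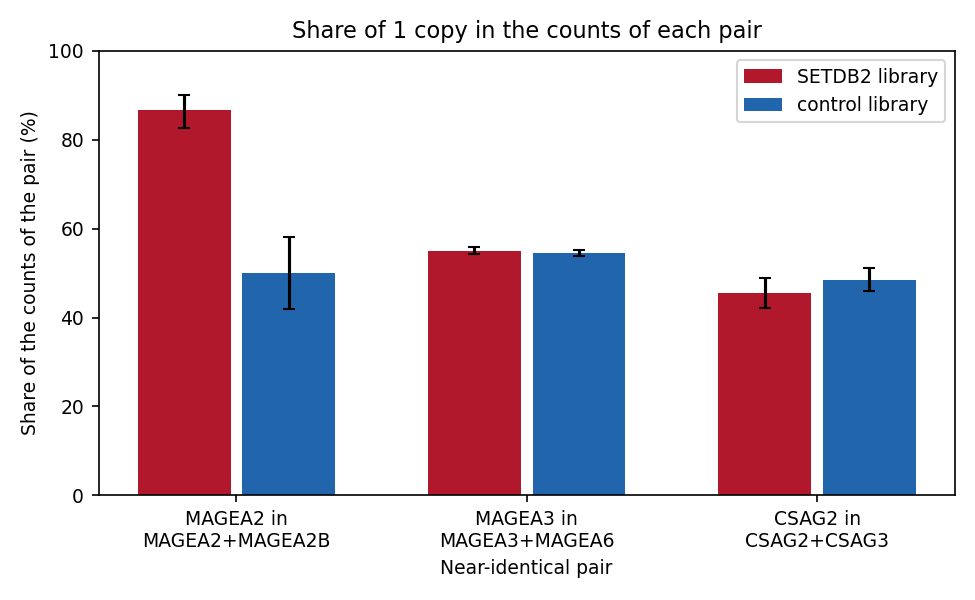
Share of the counts of each near-identical pair (y axis, %) taken by the named copy, for MAGEA2, MAGEA3 and CSAG2, with the SETDB2 library in red left of the control library in blue and exact 95% binomial intervals as bars. The share of MAGEA2 was 86.7% in the SETDB2 library, against 50% in the control library, while the shares of MAGEA3 and CSAG2 overlapped between the libraries.

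MAGEA1 (ENSG00000198681, chrX:153179285-153183880, plus strand), the first member found as a tumour antigen, had 24 counts in the SETDB2 library and 42 in the control library. Its log2 ratio was -0.80 (-1.60 to -0.06), and it is the one kept member with no 75-base piece in another gene. It passed the count filter only through the control library, with 0.708 CPM in the SETDB2 library and 1.24 CPM in the control, and an even split of its counts would not have passed. The upper bound lies near 0, so at this depth the difference could be slight. The 5 annotated genes within 100 kb of it had 0 counts in both libraries.

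The remaining genes were at the edge of detection. MAGEA4 (ENSG00000147381, chrX:151912509-151925170), a target of engineered T-cell receptors, had 8 counts in the SETDB2 library and 0 in the control library. Set against a floor of 3 counts in the control library the ratio was 2.65-fold, and with the error of both counts the interval began at 1.70-fold. MAGEA12 (ENSG00000213401, chrX:152733779-152737669), an antigen gene between MAGEA2B and MAGEA2, had 7 counts in the SETDB2 library and 6 in the control library. MAGEA10 (ENSG00000124260, chrX:152133310-152138578), another antigen gene, had 5 counts in the SETDB2 library and 2 in the control library, a 2.19-fold ratio with an interval of 0.407 to 26.1. None of these 3 passed the count filter, and with that filter no call was made on them. The spans of 3 genes overlap theirs. MAGEA4-AS1, on the opposite strand to MAGEA4, had 0 counts in both libraries. CSAG4 had 0 counts in the SETDB2 library and 1 in the control, and the read-through gene MAGEA10-MAGEA5 had 1 count in the SETDB2 library and 0 in the control. AC116666.1, an antisense gene 304 bases from MAGEA10, had 0 counts in the SETDB2 library and 7 in the control. MAGEA4, MAGEA10 and MAGEA12 summed to 20 counts in the SETDB2 library and 8 in the control, a log2 ratio of 1.26 (0.07 to 2.71). All members but MAGEA3 and MAGEA6 summed to 389 counts in the SETDB2 library and 206 in the control, of which MAGEA2 supplied 299 in the SETDB2 library and 78 in the control.

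Genes that differed 2-fold or more, with an interval clear of equality, were called higher or lower. This is no test of the condition. Of the 8 genes 5 passed the count filter, and 1 of these, MAGEA2, was higher by the rule, a state that 1.07% of all kept genes shared. None was lower by the rule, against 1.61% of kept genes, and 2.68% passed it in either direction. Among kept genes with summed counts from 50 to under 500, the range that holds MAGEA1, MAGEA2 and MAGEA2B, 3.41% were higher and 5.05% lower. The interval excluded equality on the high side for 1 of the 5 and on the low side for 2, MAGEA2B and MAGEA1, against 26.3% and 24.7% of all kept genes, and MAGEA1 was kept only for its control count. With no count filter MAGEA4 was called higher too, and over all genes the rule then called 2.97% higher and 3.62% lower. The median log2 ratio of the 5 kept members was -0.03. Nothing is read from these shares, because the genes were chosen with these counts in view.

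**Figure D3:**
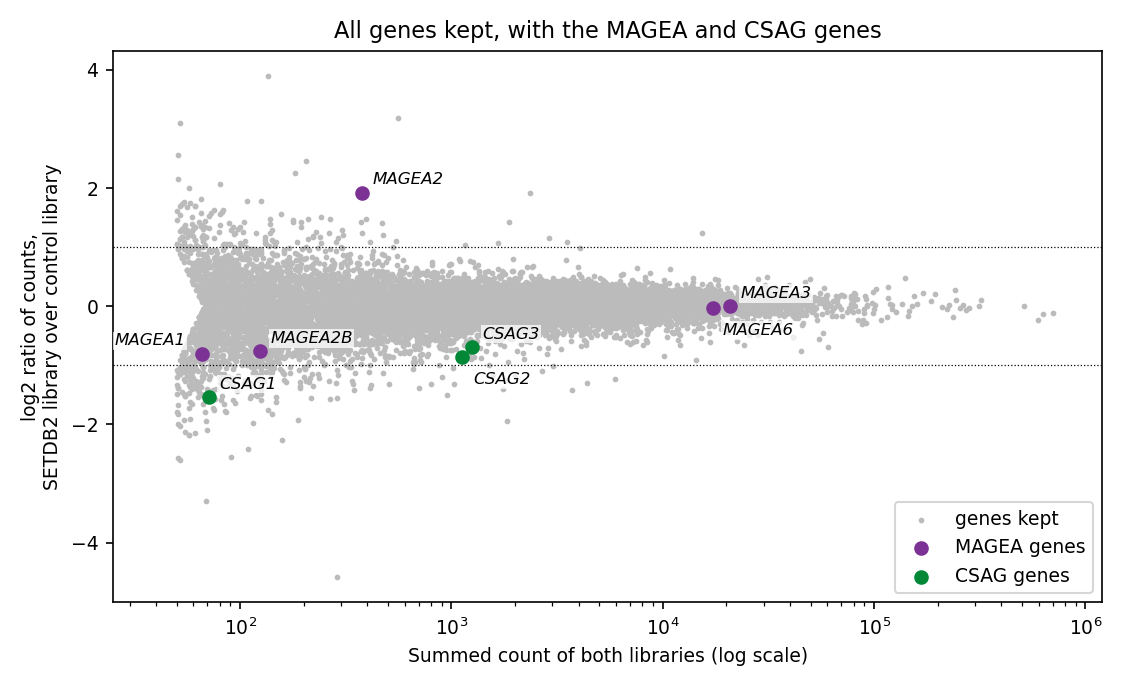
Log2 ratio, SETDB2 over control (y axis), against the summed count of both libraries (x axis, log scale) for all 14518 kept genes in grey, with 5 MAGEA genes in purple, 3 CSAG genes in green and dotted lines at 2-fold. MAGEA2 lies above the cloud at 1.93, while MAGEA3 and MAGEA6 lie at 0.00 and -0.03.

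MAGEA3, MAGEA2B, MAGEA12, MAGEA2 and MAGEA6 lie within 71.0 kb of band Xq28, on GRCh38. MAGEA3 and MAGEA6 form its ends and read inwards, and MAGEA2B and MAGEA2 lie 12.2 kb and 12.3 kb inside them. Genes of the CSAG family, also cancer-testis genes, start back to back with 3 of them. CSAG2 lies 36 bases from MAGEA2B, CSAG3 36 bases from MAGEA2, and CSAG1 43 bases from MAGEA12. All 3 CSAG genes had fewer counts in the SETDB2 library. CSAG3 had 480 counts in the SETDB2 library and 770 in the control, a log2 ratio of -0.69 (-0.86 to -0.52). CSAG2 had 401 counts in the SETDB2 library and 726 in the control, a ratio of -0.86 (-1.04 to -0.68). CSAG2 shares 92.2% of its pieces with CSAG3, and the sum of these copies was 881 counts in the SETDB2 library and 1496 in the control, a ratio of -0.77 (-0.89 to -0.65). CSAG1 had 18 counts in the SETDB2 library and 53 in the control, a ratio of -1.54 (-2.42 to -0.77), and passed the 2-fold rule. It reached 1 CPM in the control library only. MAGEA2 and CSAG3, with 36 bases between them, lay on opposite sides of 0, while MAGEA2B and CSAG2 lay on the same side. The sums of the copies lay on opposite sides too, with 1.14 for MAGEA2 and MAGEA2B and -0.77 for CSAG2 and CSAG3.

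**Figure D4:**
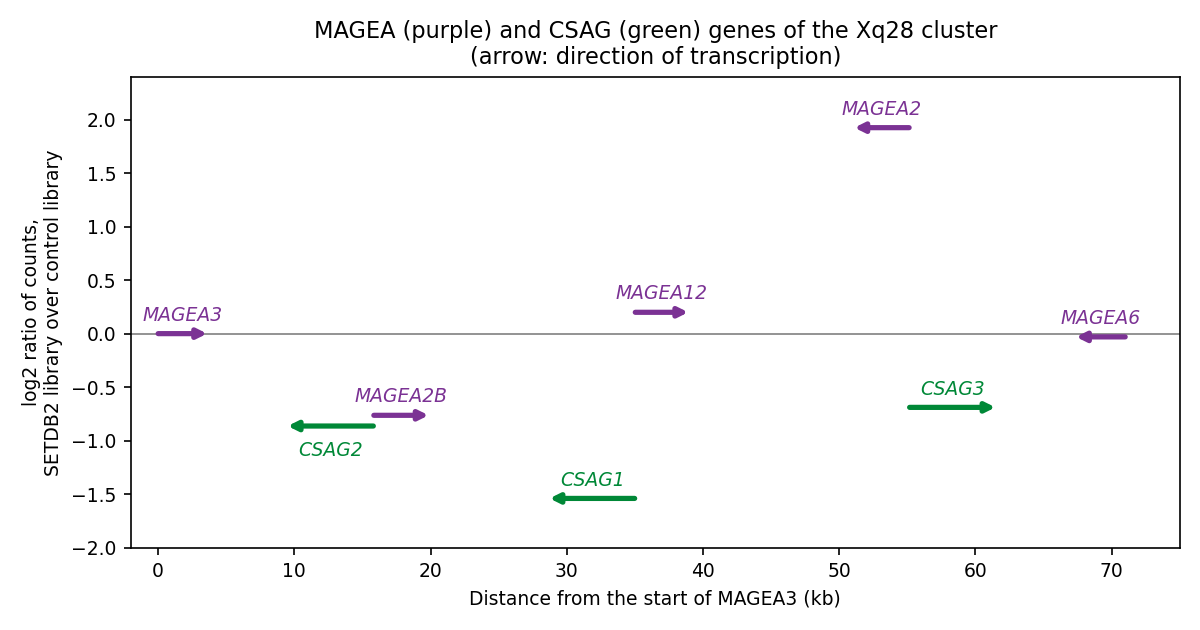
Genes of the Xq28 cluster by distance from the start of MAGEA3 (x axis, kb) and log2 ratio, SETDB2 over control (y axis), drawn to scale as arrows in the direction of transcription, MAGEA in purple and CSAG in green. MAGEA2 stands at 1.93 and its back-to-back neighbour CSAG3 at -0.69, and MAGEA12 is drawn from 13 summed counts.

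**Figure D5:**
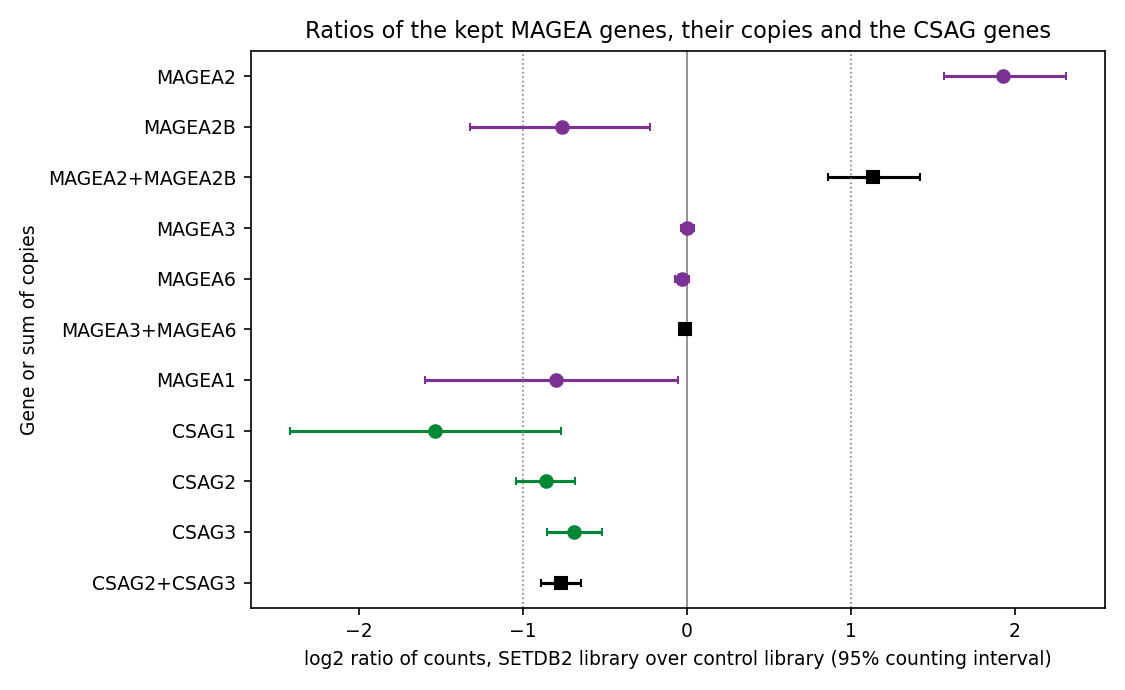
Log2 ratios of counts, SETDB2 library over control library (x axis), with 95% counting intervals as bars and dotted lines at 2-fold, for the kept MAGEA genes (purple), CSAG genes (green) and sums of copies (black squares). MAGEA2 and the sum of MAGEA2 and MAGEA2B lie right of the line at 1, and the CSAG genes lie left of 0.

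Other genes near the cluster lay within 2-fold. GABRQ, a GABA receptor subunit gene upstream of MAGEA3, had 238 counts in the SETDB2 library and 164 in the control, a log2 ratio of 0.53 (0.24 to 0.83). NSDHL, a cholesterol synthesis gene beyond MAGEA6, was at 0.38 (0.29 to 0.48), and its neighbour CETN2, a centrin gene, at 0.25 (0.17 to 0.33). GABRA3, next to MAGEA10, was at -0.07 (-0.19 to 0.06), and GABRE, next to MAGEA4, at -0.11 (-0.16 to -0.06). Of 31 Xq28 genes listed, 17 were kept, with 7 above 0 and 10 below, and of these CSAG1 alone passed the 2-fold rule. HAUS7, a gene of the augmin complex of the spindle, had 109 counts in the SETDB2 library and 177 in the control, a ratio of -0.70 (-1.06 to -0.35). Across the 512 kept genes of chromosome X the median was 0.00, and 1.37% were higher and 1.56% lower by the rule. The 5 coding genes of that chromosome with ratios nearest to that of the 8 summed MAGEA genes (0.00) were ZNF280C, DKC1, STS, ZNF41 and OCRL, within 0.003 of it over 2 libraries.

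Relatives of the family that passed the count filter lay within 2-fold. The other MAGEA genes MAGEA5, MAGEA8, MAGEA9, MAGEA9B, MAGEA11 and MAGEA10-MAGEA5 had 3 counts together in the SETDB2 library and 7 in the control. Of 13 MAGEB and MAGEC genes 4 were kept and none passed the 2-fold rule. MAGEC1, an X-linked antigen gene, had 106 counts in the SETDB2 library and 55 in the control, a log2 ratio of 0.93 (0.46 to 1.44). MAGEC2, like MAGEA3 a partner of TRIM28, had 130 counts in the SETDB2 library and 111 in the control, a ratio of 0.22 (-0.16 to 0.60). MAGEB2 had 1893 counts in the SETDB2 library and 1671 in the control. MAGEB2 was at 0.17 (0.08 to 0.27) and MAGEB17 at -0.01 (-0.32 to 0.29). Type II MAGE genes, which most tissues express, had 5 of 12 kept, with ratios of -0.05 to 0.27. MAGED1 was at 0.23 (0.14 to 0.32).

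Other X-linked cancer-testis genes varied in both directions. Of 66 listed, 36 had 0 counts in both libraries and 9 were kept, with 3 above 0 and 6 below and a median of -0.12. SPANXA1, a sperm nucleus gene, had 47 counts in the SETDB2 library and 5 in the control, a log2 ratio of 3.10 (1.90 to 4.91), and was the one gene of the list higher by the rule. CSAG1 was the one lower. Of the SPANX genes under the filter, SPANXB1 had 36 counts in the SETDB2 library and 7 in the control (2.28, 1.17 to 3.77). SPANXC had 24 counts in the SETDB2 library and 6 in the control (1.91, 0.67 to 3.57), and SPANXN2 had 16 in the SETDB2 library and 5 in the control (1.58, 0.16 to 3.47). These 3 were chosen after their values were seen. Of the other SPANX genes listed, SPANXA2 had 2 counts in the SETDB2 library and 1 in the control. SPANXN1 had 1 in the SETDB2 library and 0 in the control, and SPANXD, SPANXN3 and SPANXN5 had 0 in both. How far reads are shared among the SPANX genes was not tested. SPANXA1 was kept at a summed count of 52 because 1 library reached 1 CPM, so the filter itself favoured an uneven split. CTAG2, an antigen gene, stood at -0.06 (-0.16 to 0.04) and PAGE5 at 0.26 (0.16 to 0.35). PAGE2 had 101 counts in the SETDB2 library and 134 in the control, a ratio of -0.41 (-0.80 to -0.03). A further list of cancer-testis genes, mostly autosomal, had 18 kept of 41 table entries, 12 above 0 and none past the rule. Its widest ratios were those of TEX15 (0.62), SPA17 (0.62), PLAC1 (-0.60), STK31 (0.49), PBK (0.38) and ATAD2 (0.36). PRAME, an antigen gene often active with MAGEA genes, had 2 counts in the SETDB2 library and 0 in the control. Of 20 germ cell genes 4 were kept and none passed the rule, PRDM1 at 0.55 (0.09 to 1.02) being the farthest from 0.

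Among genes tied to MAGEA silencing and function, those that passed the count filter lay within 2-fold, SETDB2 apart. Of 34 genes for DNA methylation, H3K9 methylation and the factors that read MAGEA promoters, 32 were kept, 22 above 0 and 10 below, with a median of 0.07. SETDB2, the overexpressed gene, was the one past the 2-fold rule. SETDB1, its paralog, was at -0.36 (-0.46 to -0.27), the DNA methyltransferase DNMT3A at -0.32 (-0.47 to -0.16), and the ETS factor GABPA at 0.32 (0.20 to 0.43). CBX3, which encodes a heterochromatin protein, was at 0.29 (0.26 to 0.32), and the deacetylase HDAC2 at 0.25 (0.20 to 0.29). Of 18 MAGEA protein partners and related ubiquitin genes 17 were kept, with 8 above 0 and 9 below and none past the rule. The one not kept was TRIM31, a RING ubiquitin ligase gene, with 3 counts in the SETDB2 library and 17 in the control, a ratio of -2.33 (-4.92 to -0.72), and it is named after its values were seen. The deubiquitinase gene USP7 stood at 0.25 (0.19 to 0.31), SKP1 at 0.22 (0.17 to 0.28) and SNW1 at 0.17 (0.10 to 0.24). EP300, an acetyltransferase gene, stood at -0.24 (-0.31 to -0.17).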

How the data were processed

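RNA-seq of BHT101 cells gave 1 SETDB2 library and 1 control library. The authors deposited raw whole-number counts per gene, and FPKM values that equal those counts divided by gene length and by 1 constant per library. TopHat2 2.0.9, Bowtie2 2.0.6, Cuffdiff 2.1.1 and Cufflinks 2.1.1 appear without roles in the submitters' processing notes. For the counting program, its strand setting and its handling of multiply placed reads, nothing was given in the sources used here. All 58735 genes have the coordinates of GENCODE release 29 (GRCh38).

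Counts were scaled with TMM factors (edgeR 4.0.16, R 4.3.3), and DESeq2 1.42.0 gave alternative size factors. With 1 library per group no test was run. Log2 ratios used a prior count of 0.5. Intervals are exact Clopper-Pearson (95%) for ratios and shares and exact Poisson for counts, and cover counting error only. Copies were compared by 75-base pieces of GENCODE transcripts and with Biopython 1.88. Members, lists and rules were chosen with earlier results of these data known. Named genes were the members, overlapping and neighbouring genes within 100 kb, copies, and up to 6 per list with the largest ratios among kept genes, and some genes that this rule takes are not reported here. Alternatives changed the scaling, prior count, fold, count filter, GC trend and copy sums.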

Additional observations from a re-analysis of the deposited data

How the results depend on the processing

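Of 61 alternative values for single MAGEA genes and sums of copies, 59 stayed inside the counting interval, under DESeq2 size factors, total counts, a smaller and a larger prior count, deposited FPKM, and a GC trend removed. The interval of MAGEA4 has no upper end, and its log2 ratio ran from 2.32 to 6.02 with the prior count. The intervals of MAGEA10 (-1.30 to 4.71) and MAGEA12 (-1.58 to 2.06) are so wide that a small change could not leave them. The TMM factors were 0.995 for the SETDB2 library and 1.005 for the control, and the DESeq2 size factors 1 for both. Changing the scaling could thus move a ratio only slightly. The deposited FPKM are the same counts rescaled, so they are no separate check. The exceptions were MAGEA2 and MAGEA2B when summed, at 1.14, which for MAGEA2B turns the direction by construction. MAGEA genes past the rule numbered 3 at 1.5-fold, 0 at 4-fold and 2 with no count filter, against 1. At 1.5-fold MAGEA2 was higher and MAGEA1 and MAGEA2B were lower, and with no filter MAGEA2 and MAGEA4 were higher. The totals over all genes were 14518 with the main count filter and 29204 with none. All genes higher numbered 442 at 1.5-fold, 9 at 4-fold, 866 with no filter and 32 with a summed count of at least 200, against 155. All genes lower numbered 735, 13, 1056 and 47 under those settings, against 234. Other cancer-testis and MAGE genes past the rule numbered 7, 1, 7 and 0, against 2. They came from 5 lists with 138 table entries, of which 36 passed the main count filter. Under the main settings 389 of the 14518 kept genes, or 2.68%, passed the rule in either direction. For the higher count minimum of 200 no total is given, so its numbers cannot be read as shares. Counting per kilobase put the share of MAGEA3 in its pair at 56.1% in the SETDB2 library and 55.6% in the control library. Both lay outside the exact intervals of the raw shares, 54.4 to 55.8 (SETDB2 library) and 53.8 to 55.3 (control library). No paired analysis was possible because each group held 1 library. These depths limit MAGEA4, MAGEA10 and MAGEA12, where 1 to 8 reads decide a ratio.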
